A study of Homo sapiens with 6 samples.

Results

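YAP1, WWTR1 (which encodes TAZ), the 4 TEAD genes and the VGLL genes encode the transcription complex at the end of the Hippo pathway. The rule named 9 genes, YAP1, WWTR1, TEAD1 to TEAD4, VGLL1, VGLL3 and VGLL4, and matched them to the Ensembl identifiers of the count table by symbol. Of these, 7 were found among the 17211 genes of the table and all 7 passed the filter on low values. VGLL1 and VGLL3 were not analysed here, so that VGLL4 stands alone for its family.

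The cells were CAOV2, a human ovarian cancer line, which the sample titles also call primary cells. One group of 3 libraries came from cells given a non-targeting siRNA (siNT) and the other group of 3 from cells given an siRNA reagent against YAP (siYAP). Both groups received 100 pmol of siRNA with 6 µL of lipid reagent for 2 days and were harvested at day 3, and poly(A) RNA was sequenced. The siYAP and siNT reagents were products of different makers, so a difference due to less YAP and one due to another property of a reagent cannot be told apart. All libraries are of a single cell line, and the titles number them as biological replicates without naming separate passages, so the tests rest on the spread among these 6 libraries, which may be technical. The comparison asks how transcripts of the complex differ between siYAP and siNT.

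YAP and TAZ are paralogous co-activators without a DNA-binding domain of their own. When the Hippo kinases are inactive they enter the nucleus and bind TEAD proteins, which carry the DNA-binding TEA domain and hold the complex on its target genes. VGLL4 also binds TEAD proteins through its Tondu domains and competes with YAP, and is best known as a repressor of TEAD output. In epithelial cancers the pathway is known for its part in proliferation and in sensing cell density and matrix stiffness.

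The sequences of YAP1 and WWTR1 mRNA are shown first because the reagent was directed at YAP1 and WWTR1 is its paralog. In a single annotated transcript of each gene (GENCODE 29, GRCh38), the longest run of identical bases was 21. It is printed here 5′ to 3′ in capitals, with flanking bases in lower case.

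YAP1: acagTGTGGATGAGATGGATACAGGtgat

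WWTR1: gcaaTGTGGATGAGATGGATACAGGagaa

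In both transcripts the run lies in coding sequence and crosses the last exon junction. In YAP1 it covers the last 20 bases of exon 8 (chr11:102227562-102227581, plus strand) and the first base of exon 9 (chr11, position 102229702). In WWTR1 it covers the last 20 bases of exon 7 (chr3:149526013-149526032, minus strand) and the first base of exon 8 (chr3, position 149520989). Among 16731 tested genes with a transcript to search, the median longest run shared with YAP1 was 12 bases, and 0.0239% of genes (4, WWTR1 included) reached 21. The runs of the other 3 were strings of G and T. OBI1, with 26 bases, differed by a log2 of -0.41 (limma adjusted p = 1.43e-05) and RBPJ, with 21, by 0.08 (limma adjusted p = 0.215). The third, ENSG00000263244, with 21, differed by -0.10 (limma adjusted p = 0.192). These genes were taken by the length of the run, but were named after their values were seen. The longest run shared with YAP1 was 13 bases in TEAD1 and TEAD3, 12 in TEAD2 and TEAD4 and 16 in VGLL4. Sequences of the siRNAs were not used here, and whether one of them covers the shared run was not tested.

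Short matches in 3′ UTRs are shown next because an earlier search of these data linked the heptamer TTCTTAA, the heptamer GAGAGGA and the heptamer GATAAAG to lower fold changes; that search used the same libraries and supports nothing here. Each was searched on the transcript strand in a single annotated 3′ UTR per gene. The sites lie in the 3′ UTR on GRCh38, with the heptamer in capitals.

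WWTR1 (chr3:149519051-149519079, minus strand): tttgagtctctGAGAGGAtactttcaatt

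WWTR1 (chr3:149518139-149518167, minus strand): gtttactaataGATAAAGccagatataat

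TEAD2 (chr19:49340599-49340627, minus strand): ttctgacagagGATAAAGctattttacca

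TEAD3 (chr6:35473927-35473955, minus strand): cctgctgtcccTTCTTAAcacccaggccc

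TEAD4 (chr12:3040569-3040597, plus strand): ccaagagagctGAGAGGAgcagttgtgac

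TEAD3 also holds 2 overlapping copies of GAGAGGA, whereas the searched 3′ UTRs of YAP1, TEAD1 and VGLL4 hold none of the 3. For TEAD1 the search covered 1843 bases of a transcript of 3.075 kb, and its longest annotated transcript, of 8.477 kb, was not searched. Among 3′ UTRs within 20% of the same length, GATAAAG was present in 3.93% for TEAD2 (729 bases) and in 20.5% for WWTR1 (3570 bases). GAGAGGA was present in 31.7% of those like WWTR1 and in 2.39% of those like TEAD4 (195 bases).

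Transcripts of the co-activators fell. YAP1 had normalized read counts (reads per gene divided by a size factor of the library) of 6221, 5801 and 5955 in siNT replicates 1 to 3 and of 278, 327 and 294 in siYAP replicates 1 to 3. Every siYAP library was far below every siNT library, and of the 17200 genes tested YAP1 had the lowest log2 fold change (-4.32, standard error 0.0593, limma adjusted p = 1.00e-22). The siYAP values rest on 307, 331 and 309 reads. YAP1 lies on chromosome 11 (ENSG00000137693, 102110461 to 102233423, plus strand), and its level is the check that the siYAP label holds.

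WWTR1 (ENSG00000018408, chromosome 3, 149517235 to 149736714, minus strand) had 4359, 4217 and 4258 normalized counts in siNT and 2345, 2446 and 2450 in siYAP. The groups did not overlap, and the siYAP mean was 56.4% of the siNT mean. The log2 fold change was -0.83 (standard error 0.0446, 95% interval -0.92 to -0.73, limma adjusted p = 7.40e-13), and 4.51% of genes tested had a lower one. TAZ transcript was thus lower along with that of YAP, not higher. It holds the 21-base run and 2 of the heptamers shown above, and their part in its fall was not tested. WWTR1 overlaps the exons of the antisense gene WWTR1-AS1 over 795 bases, which had means of only 33.3 normalized counts in siNT and 16.7 in siYAP.

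Per kb of annotated exon, a scale on which genes can be compared, YAP1 stood at 952 ± 33.8 and WWTR1 at 509 ± 8.70 normalized counts per kb in siNT (SD, n = 3). In siYAP they stood at 47.6 ± 3.93 and 287 ± 7.05 (SD, n = 3). The order was reversed: WWTR1 had 0.535 ± 0.00982 times the level of YAP1 in siNT and 6.05 ± 0.389 times in siYAP (SD, n = 3). The size of this ratio depends on the gene length used. In siNT the log2 of YAP1 over WWTR1 was 0.90 per kb of exon. It was 0.38 with the longest and 0.39 with the principal annotated transcripts. Per kb of exon, WWTR1 made up 34.4%, 35.2% and 34.9% of the summed level of YAP1 and WWTR1 in siNT replicates 1 to 3, and 86.3%, 84.9% and 86.2% in siYAP replicates 1 to 3. The exact two-sided permutation p of this share was 0.1, the smallest that 3 against 3 libraries can give (0.123 after adjustment over 16 such measures).

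**Figure D1:**
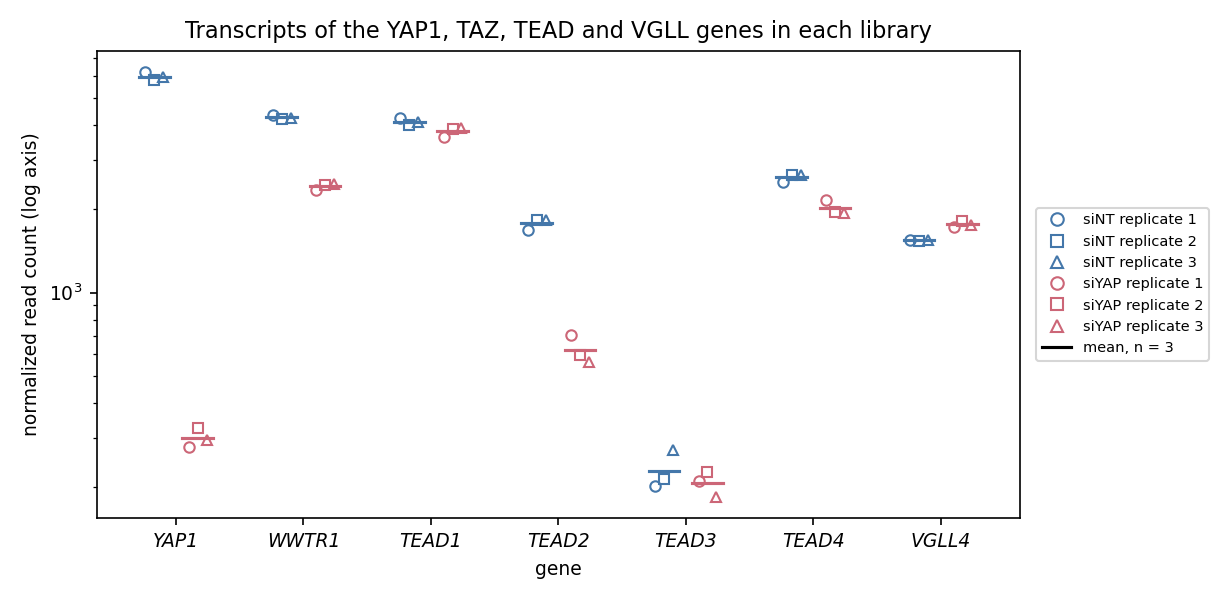
Normalized read counts (log axis) of the 7 genes in each of the 3 siNT (blue) and 3 siYAP (red) libraries, with symbols for replicates and lines at the means. YAP1 drops from between 5801 and 6221 in siNT to between 278 and 327 in siYAP; TEAD2 and WWTR1 separate widely, TEAD4 and VGLL4 by less, TEAD1 narrowly, and the groups of TEAD3 overlap.

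The 4 TEAD genes did not move alike. TEAD2 fell most, TEAD4 fell less, TEAD1 was at the edge of the test and TEAD3 did not pass it. TEAD proteins share the TEA domain and bind the same core motif, and differ mainly in the tissues in which they are made.

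TEAD2 (ENSG00000074219, chromosome 19, 49340595 to 49362457, minus strand) had 1680, 1826 and 1820 normalized counts in siNT and 701, 596 and 564 in siYAP. The highest siYAP library stayed 1.26 on the log2 scale below the lowest siNT library. Its mean fell to 35.0% of control, a log2 fold change of -1.52 (standard error 0.0690, 95% interval -1.66 to -1.38, limma adjusted p = 4.04e-14). Of the genes tested, 0.826% had a lower log2 fold change. Its 3′ UTR holds the GATAAAG site shown above, which starts at base 708 of 729, close to the end of the annotated transcript. The part of the site in the fall was not tested.

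TEAD4 (ENSG00000197905, chromosome 12, 2959330 to 3040673, plus strand) had 2492, 2649 and 2654 normalized counts in siNT and 2148, 1955 and 1938 in siYAP. All siYAP libraries were below all siNT libraries, at 77.5% of control by the means. The log2 fold change was -0.37 (standard error 0.0513, 95% interval -0.47 to -0.26, limma adjusted p = 2.22e-06), and 18.2% of genes tested had a lower one.

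TEAD1 (ENSG00000187079, chromosome 11, 12674591 to 12944483, plus strand) had 4258, 4016 and 4106 normalized counts in siNT and 3625, 3874 and 3904 in siYAP. The groups were apart by 0.04 on the log2 scale, the narrowest gap among the members that did not overlap. The log2 fold change was -0.12 (standard error 0.0460, 95% interval -0.21 to -0.02, limma adjusted p = 0.0322). The call was lost in 8 of 16 alternative settings, where the adjusted p reached 0.587: with equal totals (log2 -0.03), upper-quartile factors (-0.10), no variance trend (-0.12) or a replicate block (-0.12), and without siNT replicate 1 (-0.10), siNT replicate 3 (-0.12), siYAP replicate 1 (-0.09) or siYAP replicate 2 (-0.13).

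TEAD3 (ENSG00000007866, chromosome 6, 35473597 to 35497076, minus strand) was the scarcest, with 201, 213 and 271 normalized counts in siNT and 209, 227 and 185 in siYAP. The groups overlapped. The log2 fold change of -0.13 had a 95% interval from -0.37 to 0.10 (limma adjusted p = 0.336). That leaves room for a fall of the size seen in TEAD1 and, at its lower limit, in TEAD4 (-0.37), but not for that seen in TEAD2. The siNT mean leaned on replicate 3, without which the log2 fold change was -0.0041. Its searched 3′ UTR holds 3 heptamer copies, more than the searched 3′ UTR of any other member. TEAD3 and TEAD4 transcripts share an identical run of 56 bases, and TEAD2 and TEAD3 one of 32, so reads within these runs may not be assignable to a single paralog.

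VGLL4 (ENSG00000144560, chromosome 3, 11556070 to 11771350, minus strand) was the only member that rose. Its normalized counts were 1542, 1538 and 1541 in siNT and 1725, 1811 and 1758 in siYAP, with no overlap. The siNT libraries lay close together (coefficient of variation 0.140%). They rest on 1473, 1439 and 1275 reads, whose sampling noise is wider, so this spread understates the error of the siNT level. The siYAP mean was 115% of control, a log2 fold change of 0.20 (standard error 0.0485, 95% interval 0.09 to 0.30, limma adjusted p = 0.00154). The exons of VGLL4 overlap those of ATG7, a gene of autophagy on the other strand with a mean of 643 normalized counts, over 1596 bases, and their reads can be told apart only if strand was used in counting.

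Over the members, 5 of 7 fell, 1 rose and 1 did not pass. In the same fit 56.8% of all genes passed the test, 28.1% lower and 28.6% higher in siYAP, so a call by itself sets a gene little apart. These were 4926 genes higher and 4841 lower, and 6050 and 3700 when libraries were scaled to equal totals. Leaving aside YAP1, which the reagent was directed at, 4 of 6 fell. These include TEAD1, whose call was lost in 8 of 16 alternative settings. The median log2 fold change of the 7 was -0.37, against 0.0036 over all genes tested, and that of the 6 was -0.25. The libraries of the groups did not overlap in 6 of 7 members, and in 61.5% of all genes tested.

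**Figure D2:**
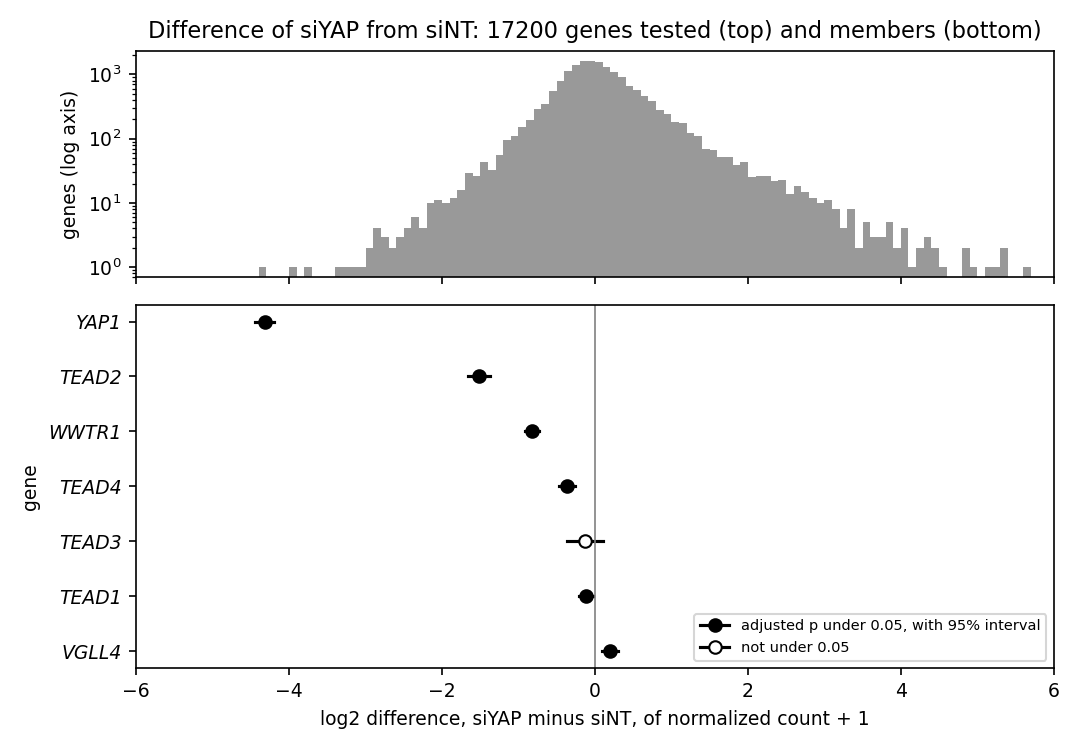
Top, number of genes (log axis) by log2 difference of siYAP from siNT over the 17200 genes tested; bottom, the 7 members with 95% intervals, filled where the limma adjusted p was under 0.05. YAP1 (-4.32) lies at the lower end of all genes, TEAD2 (-1.52) in the lower tail, and TEAD1 (-0.12), TEAD3 (-0.13) and VGLL4 (0.20) within the bulk.

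Which TEAD leads in the control depends on whether length is taken into account. In raw normalized counts TEAD1 held 47.3% ± 1.77 of the TEAD sum in siNT, TEAD4 29.8% ± 0.802, TEAD2 20.3% ± 0.784 and TEAD3 2.61% ± 0.392 (SD, n = 3). The annotated exons of TEAD1 cover 10.279 kb, however, against 2.272 kb for TEAD4, 2.98 kb for TEAD2 and 3.046 kb for TEAD3. Per kb of exon, TEAD4 led in siNT with 1144 ± 40.4 normalized counts per kb, followed by TEAD2 with 596 ± 27.8, TEAD1 with 401 ± 11.9 and TEAD3 with 74.9 ± 12.2 (SD, n = 3). The 3 siNT libraries of each did not overlap those of the next.

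The lead of TEAD4 held in siNT for all 3 lengths tried, but the rank of TEAD1 did not. With the length of the principal annotated transcript, 3.075 kb for TEAD1, the TEAD1 level was 1342 ± 39.7 per kb, above TEAD2 at 820 ± 38.2 and below TEAD4 at 1537 ± 54.4 (SD, n = 3). With the longest transcript of TEAD1, 8.477 kb, the order was again TEAD4, TEAD2, TEAD1 and TEAD3. TEAD3 was lowest and TEAD4 highest in each case. Among all 7 genes in siNT, the order per kb of exon was TEAD4, YAP1, TEAD2, WWTR1, TEAD1, VGLL4 (213 ± 0.298 per kb) and TEAD3, and no neighbours overlapped. This order also changed with the length used. With the longest transcripts the siNT mean of WWTR1 (851 per kb) was above that of TEAD2 (727). With principal transcripts WWTR1 (851) and TEAD2 (820) overlapped, and TEAD1 (1342) was above YAP1 (1113). The level of TEAD4 was above that of 92.4% of 16743 genes with a length, that of YAP1 above 90.6%, and that of TEAD3 above 44.4%.

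Per kb of exon the TEAD order changed in siYAP. TEAD4 stood at 886 ± 51.2, TEAD1 at 370 ± 14.9, TEAD2 at 208 ± 24.1 and TEAD3 at 67.9 ± 7.01 (SD, n = 3). On this scale TEAD2 moved below TEAD1. With principal transcript lengths TEAD1 was already above TEAD2 in siNT (1342 against 820 per kb). In raw normalized counts the order TEAD1, TEAD4, TEAD2 and TEAD3 held in both groups. Per kb of exon, TEAD2 held 26.3%, 27.4% and 26.9% of the TEAD sum in siNT and 14.7%, 13.2% and 12.8% in siYAP. TEAD4 went from 51.6% ± 0.422 to 57.8% ± 1.07 and TEAD1 from 18.1% ± 1.05 to 24.2% ± 1.91 (SD, n = 3). Each of these shares separated the groups completely, with an exact permutation p of 0.1 (two-sided, the smallest possible; 0.123 adjusted over 16 measures). With principal transcript lengths the share of TEAD4 was 40.7% ± 0.796 in siNT and 42.8% ± 1.65 in siYAP (SD, n = 3), a difference of 2.08 percentage points against 6.21 with the union of exons. That of TEAD1 was 34.5% to 37.4% in the siNT libraries, below the 41.4% to 46.4% of siYAP. With these lengths TEAD1 stood at 1236 ± 49.9 per kb in siYAP and TEAD4 at 1192 ± 68.8 (SD, n = 3), which overlapped. In raw normalized counts the share of TEAD4 was 29.8% ± 0.802 in siNT and 30.3% ± 1.58 in siYAP (SD, n = 3). There TEAD1 went from 47.3% ± 1.77 to 57.2% ± 2.64 and TEAD2 from 20.3% ± 0.784 to 9.34% ± 1.02 (SD, n = 3).

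**Figure D3:**
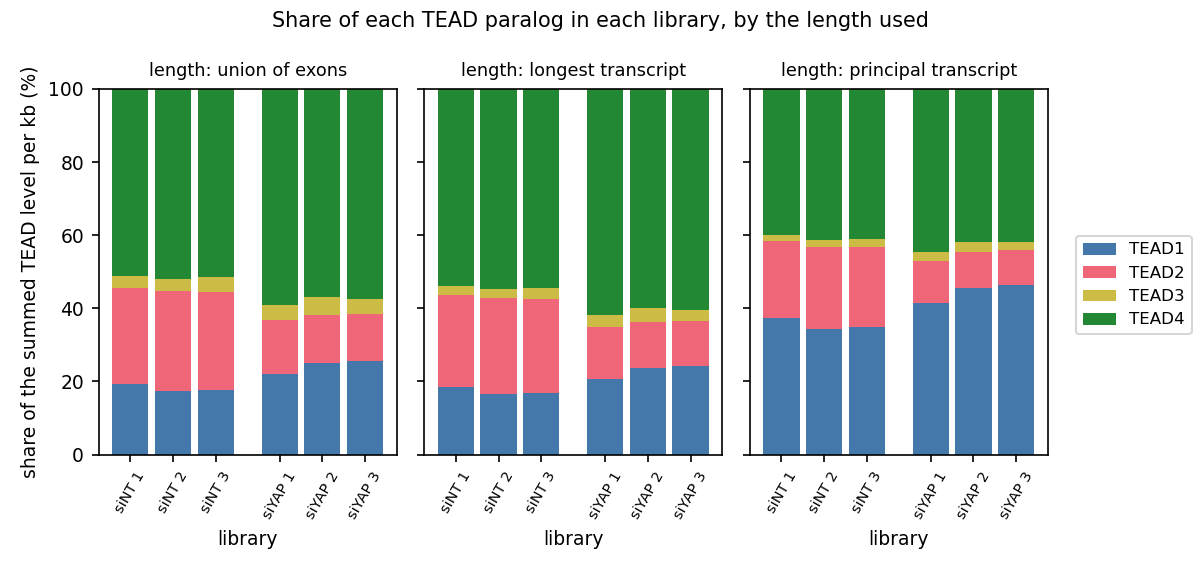
Share (%) of each TEAD gene in the summed TEAD level per kb in each of the 6 libraries, with the length of each gene taken as the union of its exons, its longest transcript or its principal transcript. TEAD2 takes a smaller share in every siYAP library whichever length is used, while the share of TEAD1 in siNT is 18.1% with the union of exons and 35.6% with the principal transcript.

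Pairs of TEAD genes were also compared within libraries, where the size factor cancels. TEAD2 lost ground to each of the others: the log2 ratio of TEAD1 to TEAD2 was -0.44, -0.65 and -0.61 in siNT and 0.58, 0.91 and 1.00 in siYAP. The ratio of TEAD2 to TEAD4 fell by 1.15 on the log2 scale and that of TEAD2 to TEAD3 fell by 1.39 (exact permutation p = 0.1 for each of the 3). For TEAD1 against TEAD3 the log2 ratio was 2.43 ± 0.245 in siNT and 2.45 ± 0.173 in siYAP (SD, n = 3; exact permutation p = 1), and for TEAD1 against TEAD4 it was -1.51 ± 0.0921 and -1.26 ± 0.141 (SD, n = 3; exact permutation p = 0.2). The log2 ratio of TEAD3 to TEAD4 was -3.94 ± 0.197 in siNT and -3.71 ± 0.156 in siYAP (SD, n = 3, exact permutation p = 0.3). Within siYAP, replicate 1 had the highest TEAD2 and TEAD4 and the lowest TEAD1, WWTR1 and YAP1 of the 3 libraries.

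The summed level of the co-activators, YAP1 and WWTR1, was 1506, 1423 and 1452 normalized counts per kb in siNT and 323, 343 and 338 in siYAP, or 22.9% of control. The TEAD sum was 2141, 2239 and 2267 per kb in siNT and 1602, 1512 and 1483 in siYAP, or 69.2% of control. Both sums separated the groups. The TEAD sum was 1.52 ± 0.0847 times the co-activator sum in siNT and 4.59 ± 0.323 times in siYAP (SD, n = 3). Relative to VGLL4 both sums were lower in siYAP. The co-activator sum was 6.86 ± 0.190 times the level of VGLL4 in siNT and 1.37 ± 0.0185 times in siYAP (SD, n = 3). The TEAD sum was 10.4 ± 0.321 times the level of VGLL4 in siNT and 6.29 ± 0.374 times in siYAP (SD, n = 3). The exact two-sided permutation p was 0.1 for each of these ratios, taken as log2 values. They describe transcripts, not protein, and in bulk RNA fewer cells making a transcript and less of it per cell cannot be told apart.

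**Figure D4:**
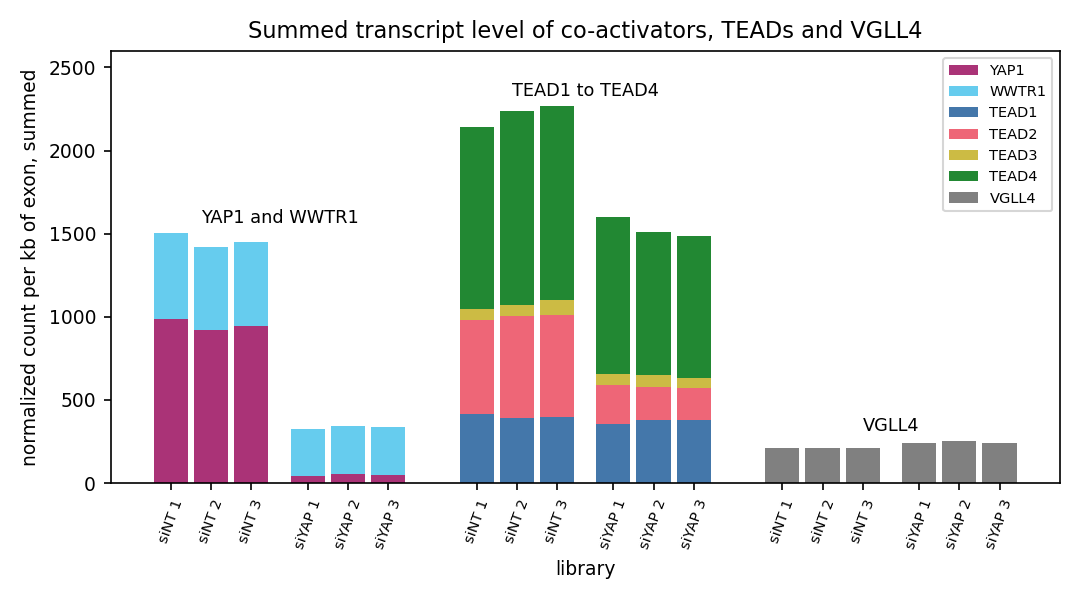
Normalized counts per kb of exon in each library, stacked by gene, for YAP1 and WWTR1, for TEAD1 to TEAD4 and for VGLL4. The co-activator bars drop from between 1423 and 1506 in siNT to between 323 and 343 in siYAP and are then mostly WWTR1; the TEAD bars drop from between 2141 and 2267 to between 1483 and 1602, and the VGLL4 bars are slightly higher in siYAP.

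The genes most like each strongly changed member were found by the root mean square difference of log2 values over the 6 libraries, centred on the siNT mean, among 12518 other genes with a mean of at least 50. No gene came close to YAP1: the nearest were VSIG1 (0.741), GMFG (0.759) and LCK (0.817). WWTR1 was nearest to MRPS6, a mitochondrial ribosomal protein gene (0.0210), CCNG2, an atypical cyclin gene (0.0257), and AMIGO2, an adhesion protein gene (0.0282), with log2 fold changes of -0.83, -0.83 and -0.85. TEAD2 was nearest to IGFBP4, which binds insulin-like growth factors (0.0506), EIF4EBP1, a repressor of translation initiation (0.0792), and ZNF395 (0.0823), with log2 fold changes of -1.50, -1.49 and -1.49. With 2 groups of libraries, this likeness mostly reflects a like fold change.

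Upstream of the complex, 5 of 19 tested Hippo kinases, adaptors and scaffolds rose, 5 fell and 9 did not pass (median log2 0.08). AMOTL2, an angiomotin that binds YAP, fell with the smallest p with 3282 ± 158 normalized counts in siNT and 1774 ± 56.4 in siYAP (SD, n = 3; log2 -0.89). LATS1, a kinase that phosphorylates YAP and TAZ, fell from 1224 ± 39.6 to 686 ± 50.1 (SD, n = 3; log2 -0.84). Of 13 genes for 14-3-3 proteins, which hold phosphorylated YAP and TAZ in the cytoplasm, and for the machinery that degrades them, 6 fell, 2 rose and 5 did not pass (median log2 -0.03). YWHAQ, the 14-3-3 theta gene, fell to 7566 ± 192 normalized counts from 21378 ± 346 (SD, n = 3; log2 -1.50), about as far as TEAD2, and YWHAE, the 14-3-3 epsilon gene, by 0.54 on the log2 scale.

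Among 19 transcription factors and co-activators that work beside the complex, 7 fell, 6 rose and 6 did not pass (median log2 0.01). FOSL2, an AP-1 subunit, was at 3871 ± 164 normalized counts in siNT and fell to 1919 ± 77.4 (SD, n = 3; log2 -1.01), and RUNX1 from 3265 ± 127 to 1855 ± 93.3 (SD, n = 3; log2 -0.82). In a 22-gene signature of YAP and TAZ targets, 10 of 21 tested members rose, 7 fell and 4 did not pass (median log2 0.11), with AMOTL2 and TGFB2 (log2 -0.68) having the smallest p. The limma adjusted p-values of the 7 genes named from these lists lay between 5.92e-18 and 6.55e-10. Over all genes tested 28.1% were lower and 28.6% higher, and no list was tested as a set.

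The libraries held between 25478595 and 31790340 recovered reads, and the members had between 192 (TEAD3) and 5941 (YAP1) reads in a library. Epithelial markers were present (10 of 10 tested; summed counts of 103849 to 112840 in siNT and 80614 to 87394 in siYAP) but moved in both directions: KRT7, KRT18, KRT19 and MUC1 fell (log2 -0.97, -0.68, -0.29 and -1.07), EPCAM, CDH1 and CLDN7 rose (0.74, 0.93 and 1.09), and 3 did not pass. Of 6 ovarian carcinoma markers, PAX8, MUC16, MSLN and FOLR1 had means of at most 28.8 normalized counts in both groups, MECOM was at 892 in siNT and 466 in siYAP, and WT1 was not analysed here. Summed immune markers (3 of 8 tested) were at 137 to 145 in siNT and 114 to 136 in siYAP, and the 1 of 5 tested endothelial markers was at 1673 to 1873 and 1261 to 1338. Fibroblast markers (6 of 7 tested) summed to 5609 to 6399 in siNT and 14299 to 14804 in siYAP. Within the list, LUM, COL3A1, PDGFRA and PDGFRB rose (log2 1.37, 2.22, 0.26 and 0.99), whereas COL1A1 and COL1A2 fell (-0.21 and -2.60). The part of these markers in the members' values was not tested.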

How the data were processed

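Poly(A) RNA-seq of 3 siNT and 3 siYAP libraries of CAOV2 cells was analysed. The authors deposited 1 normalized signal value for each gene in each library. The tools named per the submitters' processing notes are HISAT2, HTSeq, DESeq2 and FastQC, and the builds are hg19 and mm9, with no role stated. For versions, annotation and strand setting, the sources used here give nothing. In each library 100% of deposited values were whole multiples of a single step, to within 0.01 of a read, so they are read counts divided by a size factor.

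Values were tested as log2(value + 1) with limma 3.58.1 (trend, robust; R 4.3.3) for the 17200 genes that reached 1 in 3 or more libraries, with group alone in the design and Benjamini-Hochberg adjustment, called under 0.05; fold changes on this scale understate low genes. The script was tested on simulated data. Recovered reads were also tested with edgeR 4.0.16, which called 4916 genes higher and 4655 lower, and DESeq2 1.42.0. Further alternatives were the pseudocount, filters, trend, scalings, a replicate block, left-out libraries and gene lengths. No pair of libraries in a group agreed within sampling noise (2.75 to 7.50, chi-square over its degrees of freedom).

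Symbols came from a name table (16662 of 17211 identifiers) and GENCODE 29, whose GRCh38 models gave coordinates, lengths and sequences by identifier; the principal transcript is the APPRIS principal isoform, then the longest 3′ UTR. Protein sequences were not used here. Members and lists were chosen with earlier results of these data known. Genes named are the members, the 3 nearest genes of each member called with a log2 change of at least 0.5, and the 2 smallest p-values of each list.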

Additional observations from a re-analysis of the deposited data

How the results depend on the processing

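Over 16 alternatives for the fit, the log2 fold changes of YAP1 (-4.38 to -4.23), WWTR1 (-0.84 to -0.74), TEAD2 (-1.61 to -1.43), TEAD4 (-0.42 to -0.28) and VGLL4 (0.18 to 0.28) kept their direction and their call, TEAD3 was never called, and TEAD1 lost its call in 8, so that 4 or 5 members were lower. Equal totals moved the median of all genes to 0.09 and gave 6050 genes higher and 3700 lower, against 4926 and 4841. Same-numbered libraries did not deviate together (correlations of deviations of -0.338, -0.0083 and -0.0685). Between differently numbered libraries these correlations ranged from -0.269 to 0.317, and a pairing in another order was not tested. With the replicate block 4654 genes were higher and 4487 lower, and no member but TEAD1 (limma adjusted p = 0.0979) changed its call.

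The siYAP minus siNT differences in shares, sums and the ratios between sums kept their direction, but not their size, with the 3 lengths and with equal totals. With principal transcript lengths the siYAP minus siNT difference in share of the TEAD sum was 8.88 percentage points for TEAD1, -11.4 for TEAD2, 0.469 for TEAD3 and 2.08 for TEAD4, and the log2 difference was -0.44 for the TEAD sum and 0.64 for VGLL4 over the TEAD sum. The share of WWTR1 differed by 46.3 points with the longest and with the principal transcripts, the co-activator sum by -1.87 (both lengths), its ratio to the TEAD sum by -1.35 (longest) and -1.43 (principal), and VGLL4 over the co-activator sum by 2.07 (both). With equal totals the TEAD sum differed by -0.44 and the co-activator sum by -2.04. The difference in the TEAD1 to TEAD3 log2 ratio (0.01) ranged from -0.12 to 0.12 when single libraries were left out, reversing without siNT replicate 3 (-0.12) and siYAP replicate 3 (-0.09), and TEAD2 over TEAD1 in siNT reversed with principal lengths (log2 -0.71). These changes follow from the lengths, scalings or samples used. TEAD3 and siYAP YAP1 rest on between 192 and 331 reads per library, which limits their precision.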
